A study of Mus musculus with 2 samples.

Results

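Runx1, Runx2, Runx3 and Cbfb, the genes of the RUNX transcription factors and of their common partner subunit, were examined for accessible chromatin in regulatory T (Treg) cells. The 4 genes were taken by name, and their regions were chosen by position alone. A region was counted for a gene if it lay in the gene body or within 5 kb of it, or if the nearest protein-coding transcript start, within 100 kb, belonged to the gene. By this rule 41 of the 29415 accessible regions belonged to the 4 genes: 19 to Runx1, 10 to Runx2, 10 to Runx3 and 2 to Cbfb. Chromatin accessibility had been measured by ATAC-seq, in which the Tn5 transposase cuts and tags open DNA, in inflammation-experienced Treg cells from 1 adult male mouse, 6 months old, of the strain Foxp3CreERT2 x Rosa26YFP. In this strain a drug-inducible Cre recombinase is expressed from Foxp3 and Rosa26YFP is a Cre reporter. The labels give a bone marrow hematopoietic cell as the origin of these primary cells. Neither the drug treatment, nor the sort, nor the inflammation is given in the sources used here. The 2 samples were technical replicates of that mouse and their peaks were deposited as pooled lists, so there was 1 group, no spread between animals could be measured and no test between conditions was possible. The sequencing depth is unknown.

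RUNX proteins bind DNA through the Runt domain, and Cbfb encodes CBFβ, which does not bind DNA itself but joins the Runt domain and strengthens its binding. Each Runx gene has a distal and a proximal promoter, which give proteins that differ at the amino terminus. Runx1 is required for the first blood stem cells and for T cell development, Runx3 silences Cd4 in the CD8 lineage, and Runx2 is best known as the regulator of bone formation. In Treg cells RUNX–CBFβ complexes bind Foxp3 and help to maintain its expression.

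The cells carried the accessible promoters of T cells. A region lay within 1000 bp of a transcript start at 8 of 10 T cell marker genes and 6 of 7 Treg markers (49.7% of all 21853 protein-coding genes had one). The exceptions were Cd4, Thy1 and Tnfrsf18. The count was 0 of 7 for myeloid markers, 1 of 6 for B cell markers, 1 of 5 for CD8 and NK cell markers and 2 of 4 for erythroid markers. The part of other cells in the results was not tested. All heights given are the authors' fold enrichment over background, the nature of which is not stated, and their −log10 p. Positions are GRCm38 (mm10), counted from 1.

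The distal promoters of the 3 Runx genes hold one and the same pair of RUNX cores. It is shown first because it is the clearest feature shared by the family that the choice of genes did not use. In the RefSeq promoter windows (250 bases before to 50 after a start, GRCm38.p6), the core TGTGGT was found in reverse orientation as 2 copies with 2 bases between them. The 30 bases around the pair are given on the strand of each gene, with the 2 cores in capitals.
Runx1, chr16:92826025-92826054, minus strand: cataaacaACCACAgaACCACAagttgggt
Runx2, chr17:44814583-44814612, minus strand: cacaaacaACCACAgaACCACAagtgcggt
Runx3, chr4:135120503-135120532, plus strand: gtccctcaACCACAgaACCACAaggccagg
A run of 18 bases was identical in all 3 genes. Counted from the RefSeq starts, the pair began 29 bases into the transcript at Runx1, 24 bases into it at Runx2 and 134 bases before the start at Runx3. The gene 5′ ends used for the distances below lie further upstream at Runx1 and Runx2. Of 32851 promoter windows 7 (0.0213%) held 2 such cores with this spacing, on either strand. They were those of Runx1, Runx2, Runx3, the noncoding gene Gm16225, which starts back to back with Runx3, and Gm12236, Gm15462 and Olfr24. The spacing was singled out once the windows had been read, so this share is a description. In the Treg cells the pair was inside an accessible region at Runx3, with a fold of 26.5, and at Runx1, with a fold of 10.5. It lay outside every region of all 3 deposited lists at Runx2.

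Runx1 had one of the highest numbers of regions of all genes, and Runx2 and Runx3 also had many. By the same rule 326 of 21853 protein-coding genes (1.49%) had at least 10 regions, as did 3 of the 4 genes here. Runx1 with 19 ranked 17th, level with 12 other genes, and 99.9% of genes had fewer. Runx2 and Runx3 with 10 each ranked 245th, above 98.5% of genes. Cbfb with 2 was above 61.5%, and the median gene had 1. Per length of the sequence counted for each gene the order was different. Runx1 had 5.76 regions per 100 kb, Runx3 had 5.35, Cbfb 2.79 and Runx2 2.36, with ranks of 3976, 4401, 8321 and 9267 among all genes. Among the 12 genes level with Runx1, the densest were Abtb2, Btg1, Cd47, Hivep2 and Prkcq, at 7.46 to 9.61 regions per 100 kb. Dusp2, a phosphatase gene, was the densest of the other genes with 10 regions, at 25 per 100 kb.

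**Figure D1:**
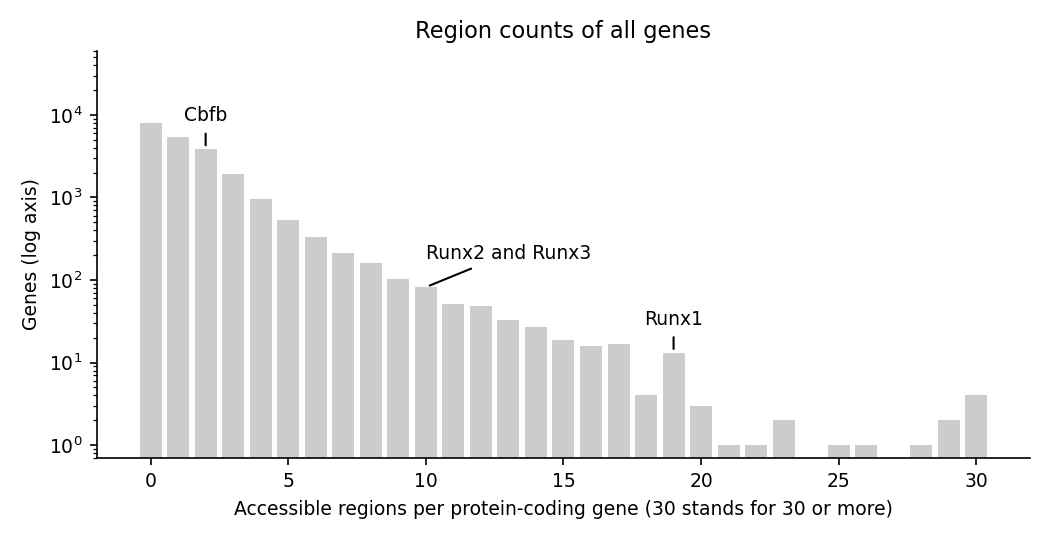
Number of protein-coding genes (log axis) by their number of accessible regions, with the 4 loci marked. Cbfb lies in the bulk of genes at 2 regions, Runx2 and Runx3 at 10 and Runx1 in the sparse tail at 19.

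Most regions lay away from the promoters. Of the 41 regions 8 (19.5%) were promoter regions, with the summit no more than 1000 bp from a protein-coding start, 24 (58.5%) in introns, 8 (19.5%) between genes and 1 in an exon, that of the antisense RNA Runx2os2. In all regions the shares were 36.7% at promoters, 33.7% in introns, 24.6% between genes and 4.96% in exons. The loci also differed from each other. At Runx1 16 of 19 regions touched the gene body, at Runx2 8 of 10 and at Cbfb both, whereas at Runx3 only 3 of 10 did and 7 lay in the flanks.

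**Figure D2:**
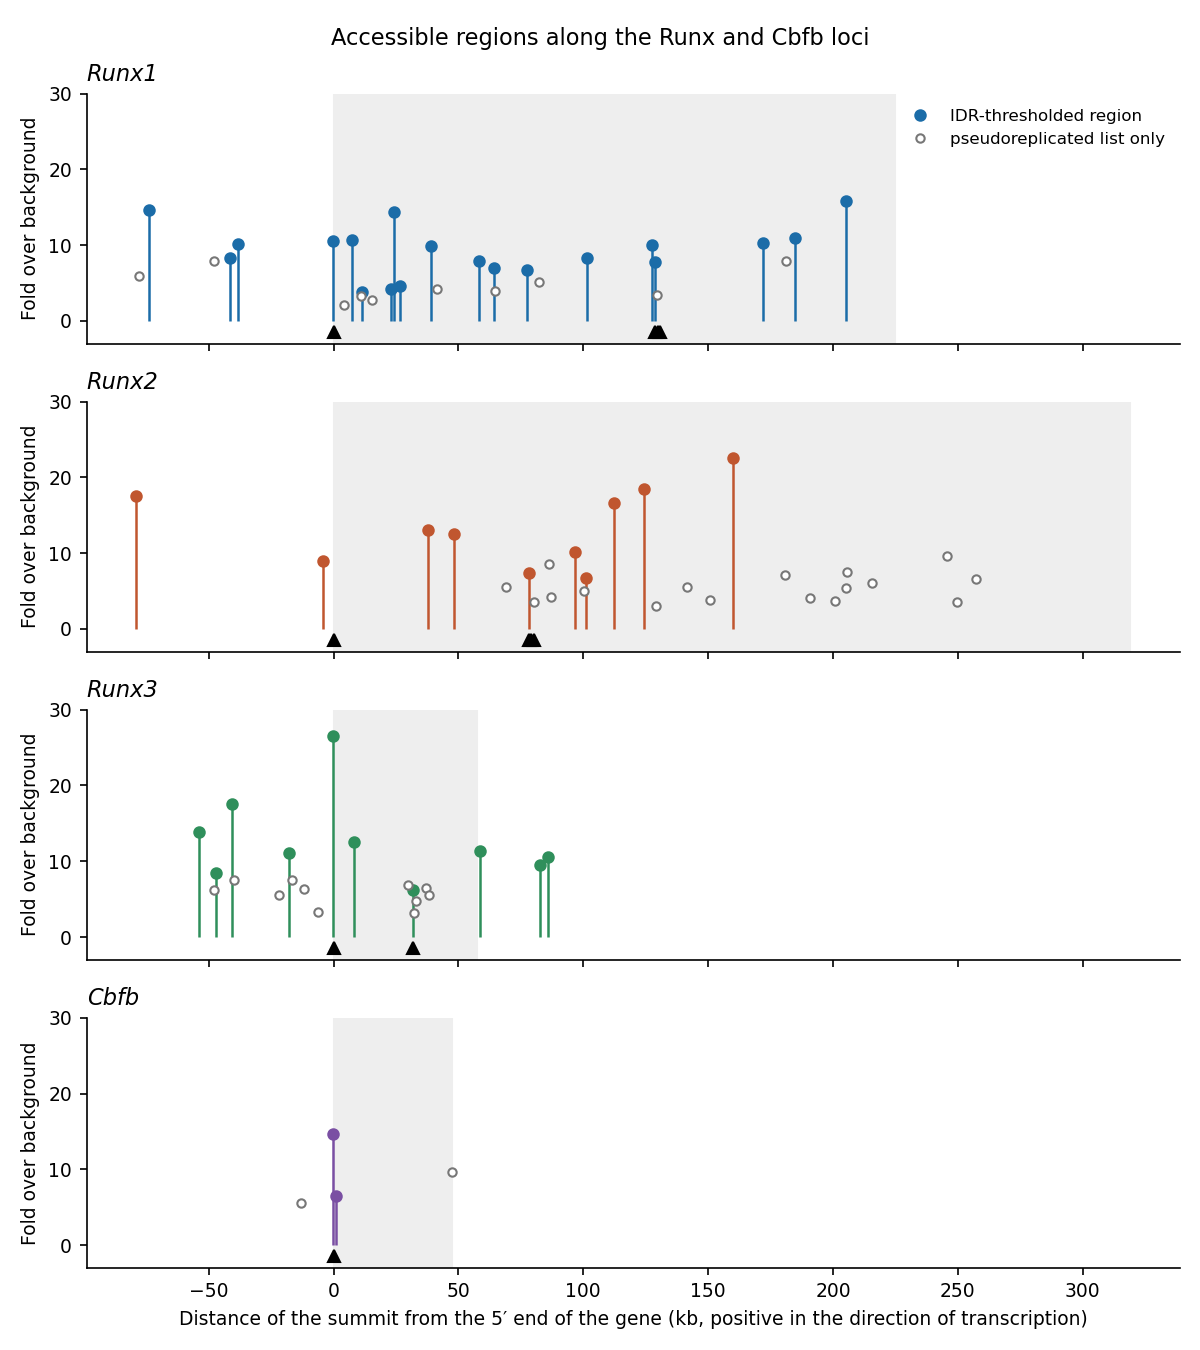
Fold over background of each region against the distance of its summit from the 5′ end of the gene. Filled points are the 41 regions of the IDR-thresholded list, open points regions of the pseudoreplicated list alone, grey the gene body and triangles the start clusters. Filled Runx1 points spread along the gene, filled Runx2 points end 160077 bp into it with 9 open points beyond, and filled Runx3 points flank a short gene.

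Runx1 (ENSMUSG00000022952.17, chr16:92601466-92826149, minus strand) spans 225 kb. Its 19 regions had folds from 3.77 to 15.8 with a median of 9.81. The distal promoter region, chr16:92825186-92826587, was the widest of them at 1402 bp, with 5 summits and a fold of 10.5. Around the proximal start, 128821 bp further into the gene, there were 2 regions, at chr16:92697810-92699024 with a fold of 10 and a summit at −1471 bp from that start, and at chr16:92697180-92697609 with 7.81. The first of these reaches to within 1000 bp of the start, but its summit lies in the intron. Both promoters of the gene were thus accessible. The region with its summit at the proximal start was lower than the distal one, with folds of 7.81 and 10.5 and a −log10 p of 55.8 and 197.

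The interval between the 2 Runx1 promoter regions held 11 intronic regions, the last at 127350 bp next to the proximal one, and enhancers of blood cells are known from it. The region there with the greatest −log10 p was chr16:92801553-92802127, 24367 bp from the 5′ end and 23996 bp from the second annotated distal start. It had a fold of 14.3 and a −log10 p of 262, the greatest at Runx1. A pair of low regions stood on either side of it, at 22859 bp with a fold of 4.14 and at 26700 bp with 4.59. The region at 7484 bp had a −log10 p of 233 and a fold of 10.7. By fold the highest were instead chr16:92620645-92621337 (15.8), in an intron 205244 bp from the 5′ end, and chr16:92899709-92900375 (14.6), between genes at −73740 bp, which was also the farthest upstream. Their −log10 p was 78.1 and 58.9. So the order of the Runx1 regions depended on the measure, with fold and −log10 p naming different leading regions. The longest stretch without a region between the outermost ones, 42.9 kb, ran downstream from the proximal promoter.

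Windows reaching 50 bp to either side of the summit of 2 Runx1 regions are given on the strand of the gene, to show the region with the greatest −log10 p beside the one whose summit lay closest to a RUNX core. In these and all further windows capitals mark a match to RUNX (TGTGGT), ETS (AGGAAG) or AP-1 (TGANTCA), on either strand.
Runx1 at 24367 bp, chr16:92801732-92801832, minus strand: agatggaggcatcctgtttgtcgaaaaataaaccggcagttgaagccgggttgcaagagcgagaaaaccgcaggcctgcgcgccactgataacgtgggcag
Runx1 at 39172 bp, chr16:92786927-92787027, minus strand: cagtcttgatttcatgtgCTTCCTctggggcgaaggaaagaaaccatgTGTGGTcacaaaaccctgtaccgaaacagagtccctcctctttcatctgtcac
The first window held none of the 15 motifs searched. In the second the centre of the RUNX core was 0.5 bp from the summit and an ETS match lay in the same window. Its region, chr16:92786552-92787123, had a fold of 9.81.

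Runx2 (ENSMUSG00000039153.16, chr17:44495987-44814797, minus strand) spans 319 kb and had its regions in the gene's first part and upstream. Their folds ran from 6.67 to 22.5 with a median of 12.8. The distal start cluster, where 4 annotated transcripts begin, had no region within 1000 bp in the IDR-thresholded, the pseudoreplicated or the ranked list. The edge of the nearest region, chr17:44818661-44819333 with a fold of 8.91, was 3864 bp from it. Around the proximal starts a region of 1637 bp, chr17:44734930-44736566, had 6 summits, the most of the 41 regions, and a fold of 7.33. It also covers the start of the antisense RNA Runx2os1. The Treg cells therefore had an accessible proximal and no accessible distal Runx2 promoter in these lists.

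The 2 highest Runx2 regions lay in introns beyond the proximal promoter. They were chr17:44654410-44655138, 160077 bp from the 5′ end, with a fold of 22.5, and chr17:44690413-44691123 at 124217 bp with 18.4. The third in order, chr17:44893443-44893961 at −79002 bp, was the farthest upstream and had 17.5. It lies in an intron of Supt3, a gene for a transcription coactivator subunit that overlaps Runx2 on the other strand. The fourth, chr17:44702430-44703414 at 112110 bp, had 16.6. For 2 of the 10 regions the nearest start was that of Supt3 (folds of 13.1 and 12.5). One of these, chr17:44776598-44777787, is the promoter region of Supt3 and lies in the body of Runx2, so it cannot be credited to Runx2 from position. The windows of the 2 highest regions are given because one holds both a RUNX and an ETS match and the other an ETS match alone.
Runx2 at 124217 bp, chr17:44690530-44690630, minus strand: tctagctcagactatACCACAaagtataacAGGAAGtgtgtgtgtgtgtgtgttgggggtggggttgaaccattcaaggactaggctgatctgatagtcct
Runx2 at 160077 bp, chr17:44654670-44654770, minus strand: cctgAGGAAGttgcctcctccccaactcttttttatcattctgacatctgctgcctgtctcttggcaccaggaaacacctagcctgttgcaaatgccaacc

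The 3′ part of Runx2 showed regions in the larger list alone. From the last thresholded region to the 3′ end of the gene, 158 kb, the IDR-thresholded list held none, and the pseudoreplicated list held 9. In all, the pseudoreplicated list had 27 Runx2 regions, of which 17 overlapped none of the thresholded list. These 17 had folds of 3.08 to 9.56 with a median of 5.35. The same count was 10 of 29 at Runx1 (median fold 4.10), 11 of 21 at Runx3 (6.15) and 2 of 4 at Cbfb (7.58). At Runx1 one of them, chr16:92696657-92696994 with a fold of 3.35, lay within 1000 bp of a proximal start that had no thresholded region.

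Runx3 (ENSMUSG00000070691.10, chr4:135120652-135177990, plus strand) had the highest region of the 4 loci, at its distal promoter. The region chr4:135120072-135120739 had a fold of 26.5 and a −log10 p of 329, a fold above 98.1% of all regions and above 96.7% of promoter regions. It covers the starts of both Runx3 and Gm16225, a noncoding RNA on the other strand. At the proximal promoter, 31844 bp into the gene, the region chr4:135152127-135152718 had a fold of 6.19 and a −log10 p of 29.7, the lowest fold at this locus. The ratio of the 2 folds was 4.28. Among 631 genes whose starts lie at regions of different fold, 5 (0.792%) had a ratio at least as large, and the median ratio was 1.49. At Runx1 it was 1.05 when the highest region reaching to within 1000 bp of each start was taken, as for all genes, which at the proximal start is the one with its summit at −1471 bp. Of the 2 Runx3 promoters the distal one thus stood far above the proximal one.

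The flanks of Runx3 held 7 of its 10 regions. The highest, chr4:135079811-135080240 at −40627 bp, had a fold of 17.6 and a −log10 p of 154. The farthest upstream, chr4:135066789-135067522 at −53721 bp, had 13.8. Within 50 bp of its summit it held a match to the CTCF motif, the single one in the summit windows of the 41 regions. The intronic region at 8329 bp had a fold of 12.6. Downstream of the gene the folds were 11.3, 9.49 and 10.5, the farthest at chr4:135205965-135206621, 85768 bp from the 5′ end. The next 4 sequences show the distal summit, the summit at −40627 bp and, for the contrast in base composition, the 120 bases upstream of the distal and of the proximal start.
Runx3 at −216 bp, chr4:135120386-135120486, plus strand: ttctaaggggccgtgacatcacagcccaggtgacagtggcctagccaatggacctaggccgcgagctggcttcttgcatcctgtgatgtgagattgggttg
Runx3 at −40627 bp, chr4:135079975-135080075, plus strand: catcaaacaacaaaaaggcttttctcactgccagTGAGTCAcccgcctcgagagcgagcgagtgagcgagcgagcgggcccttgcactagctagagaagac
Runx3 upstream of the distal start, chr4:135120532-135120651, plus strand: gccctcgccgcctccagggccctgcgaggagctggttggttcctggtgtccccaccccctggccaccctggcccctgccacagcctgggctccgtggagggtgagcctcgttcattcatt
Runx3 upstream of the proximal start, chr4:135152376-135152495, plus strand: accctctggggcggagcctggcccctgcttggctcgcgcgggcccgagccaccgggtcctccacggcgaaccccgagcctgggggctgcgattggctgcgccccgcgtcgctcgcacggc
The bases upstream of the distal start hold 5 CG pairs and those upstream of the proximal start 16. The window at −40627 bp holds an AP-1 match, and that at −216 bp none of the 3 motifs in capitals. The pair of RUNX cores in the distal promoter lay 82 bp from its summit.

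Cbfb (ENSMUSG00000031885.14, chr8:105170674-105217989, plus strand) spans 47.3 kb and had regions at its promoter only. The region chr8:105170024-105170873 had a fold of 14.7 and a −log10 p of 149, and chr8:105171403-105171874, whose summit lies 861 bp into the gene, had 6.44 and 39.1. The remaining 46.1 kb of the gene held no region of the IDR-thresholded list. The window of the main summit is given because this promoter, unlike the distal Runx promoters, is rich in CG pairs, with 10 in the window, and has no RUNX core.
Cbfb at −143 bp, chr8:105170481-105170581, plus strand: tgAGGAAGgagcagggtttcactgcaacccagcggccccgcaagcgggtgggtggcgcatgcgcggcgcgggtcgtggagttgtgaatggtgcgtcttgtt

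Taken over start clusters, in which starts up to 500 bp apart are joined, 8 of the 11 clusters of the 4 genes had a region within 1000 bp, against 37% of the 34338 clusters of all protein-coding genes. The 3 without one were the Runx2 distal start and 2 Runx1 starts 130024 and 130654 bp into the gene. Runx1 and Runx2 thus each had starts with and without a region, as did 42% of the 8233 genes with 2 or more clusters, and Runx3 had a region at both. The distal starts are poor in CpG. The observed over expected CpG ratio within 500 bp was 0.31 at Runx1, 0.164 at Runx2 and 0.361 at Runx3. It was 0.865 at the first proximal Runx1 start, 0.909 at that of Runx2, 0.949 at that of Runx3 and 0.928 at Cbfb. Of all clusters with a ratio of at most 0.4, 9.05% had a region, against 67.3% of those above it. Of the 3 distal Runx starts 2 had one. Within the same 500 bp on either side, the distal starts held 4, 5 and 3 RUNX cores, in the order Runx1, Runx2 and Runx3, and the other 8 clusters held 0. Over all clusters 44.5% held at least 1 and 3.28% held 3 or more, and among those with a ratio of at most 0.4 the latter share was 5.12%. The Runx2 distal start had the most cores and no region. A relation between core count and accessibility was not tested, and 3 distal starts are too few to show one.

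**Figure D3:**
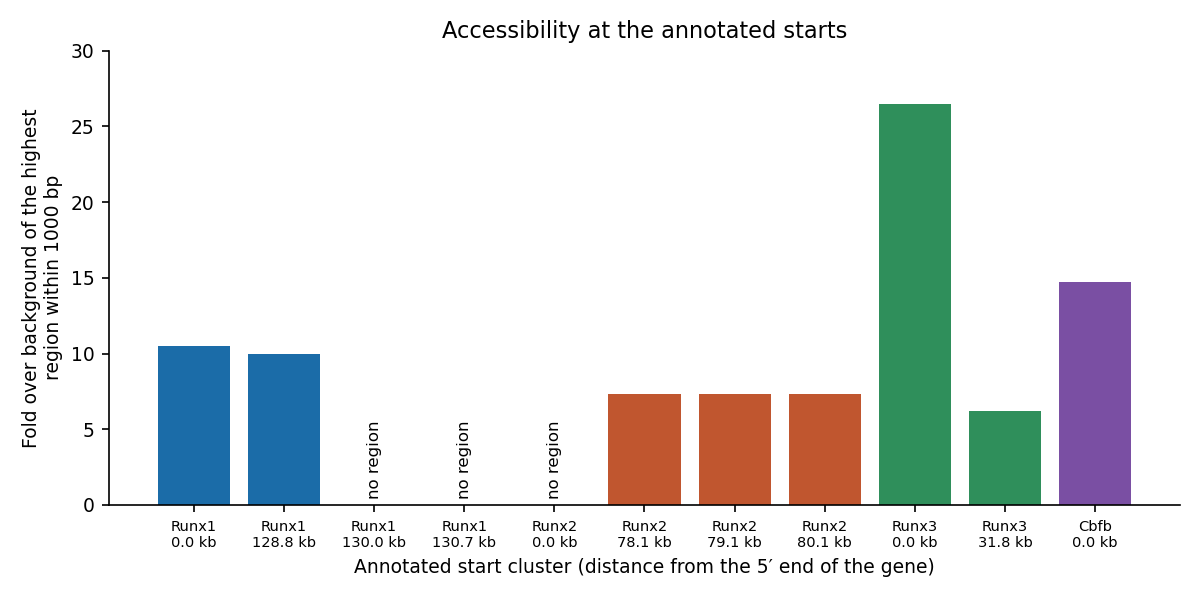
Fold over background of the highest region within 1000 bp of each of the 11 start clusters, labelled by the distance from the 5′ end of the gene. The distal Runx3 start reaches 26.5, the distal Runx2 start and 2 proximal Runx1 starts have no region, and the 3 proximal Runx2 clusters share 1 region.

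The regions of the 4 loci were lower than most. Their median fold was 10.3 (interquartile range 7.92 to 13.8) and that of all regions 13.1 (9.30 to 17.5). In the upper 50% of regions by fold there were 11 of the 41, namely 3 of Runx1, 4 of Runx2, 3 of Runx3 and 1 of Cbfb. The median was 9.14 over the 8 promoter regions against 15.4 over all promoter regions, and 10.1 over the 24 intronic regions against 11.6. By −log10 p the median was 62.5 against 92.5, and 10 of 41 were in the upper 50%. Promoter regions, a smaller share of the 41 than of all regions, have the greatest −log10 p. By class the medians were 110 against 177 at promoters, 62.8 against 68 in introns and 60.5 against 70 between genes. Median widths were 628 bp and 659 bp, and 22 of 41 (53.7%) had more than 1 summit against 55.9%. Within the classes this direction held at promoters only. There the median widths were 759 bp against 909 bp and the shares with more than 1 summit 62.5% against 79.4%. In introns they were 615 bp against 539.5 bp and 54.2% against 40.3%. Between genes the regions of the 4 loci also had the wider median and the higher share (50% against 44.2%). Across the 41 regions fold and −log10 p had a Spearman correlation of 0.731 (0.722 across all regions), a description, since both come from the same reads. The ranked list gives a −log10 p in each of 2 sets. These 2 values lay within 2-fold of each other at the summit of all 41 regions, with a median ratio of 1.24 and a greatest of 1.83. The regions come from a list already limited by IDR, so this agreement was partly fixed by the choice of list. The share at the highest summits of all regions was not computed. Over every one of the 77 summits in the 41 regions the share was 81.8%, beside 84.9% of all 58138. What the 2 sets are is not given in the sources used here.

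**Figure D4:**
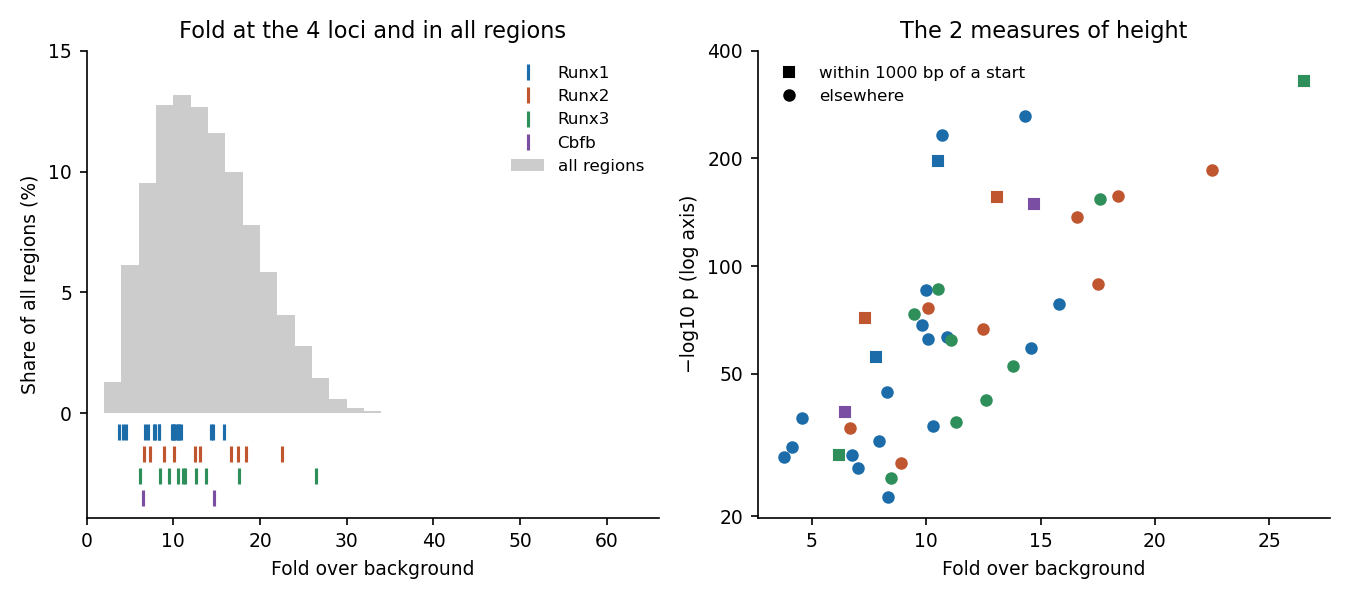
Left, fold over background of all 29415 regions (grey, share in bins of 2) and of each region of the 4 loci (ticks). Right, −log10 p (log axis) against fold for the 41 regions, with squares for summits within 1000 bp of a start. The loci fill the lower and middle range, and the distal Runx3 promoter stands at 26.5 and 329.

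RUNX cores lay near the summit of some Runx1 and Runx2 regions. A match to TGTGGT on either strand within 50 bp of the summit was found in 8 of 41 regions (19.5%, 95% exact binomial interval 8.82 to 34.9%), and in 13.7% of all regions. They were 6 of 19 at Runx1, 2 of 10 at Runx2, 0 of 10 at Runx3 (upper bound 30.8%) and 0 of 2 at Cbfb. Away from promoters the share was 8 of 33 (24.2%, 11.1 to 42.3%) against 18.6%, and at promoters 0 of 8 (upper bound 36.9%) against 5.11%. The difference from all regions was within the interval in each case. In the whole length of the regions, 9 Runx1, 4 Runx2 and 3 Runx3 regions held a core, 16 of 41 (39.0%) against 42.2%. Per kb of region the direction was the other way, with 1.12 cores against 0.845. It was 1.55 at Runx1, 1.08 at Runx3, 0.726 at Runx2 and 0 at Cbfb. Of the 30 cores in the 41 regions, the distal promoter regions of Runx1 (1402 bp) and Runx3 (668 bp) held 4 each. The number per kb was not computed without these regions or by class. The longer form TGTGGTTT, every match of which is also a TGTGGT match, was found at 1 Runx2 summit, that at 112110 bp (3.08% of all regions).

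Among the other motifs AP-1 (TGANTCA), the site of Fos, Jun and BATF factors, was the most raised. It was found at 7 of 41 summits (17.1%, 7.15 to 32.1%) against 6.35% of all regions, 3 at Runx1 and 2 each at Runx2 and Runx3. Away from promoters it was 7 of 33 (21.2%, 8.98 to 38.9%) against 8.75%, a lower bound just above the background and not adjusted for the 15 motifs. ETS (AGGAAG) was found at 13 summits (31.7%) against 27%. Away from promoters it was 10 of 33 (30.3%, 15.6 to 48.7%) against 32.6%. At promoters it was 3 of 8 (37.5%, 8.52 to 75.5%) against 17.2%, with 2 of these at Cbfb. RUNX together with ETS was found at 4 (9.76%, 2.72 to 23.1%) against 4.20%. GC boxes (GGGCGG), bound by SP and KLF factors, were found at 3 summits (7.32%, 1.54 to 19.9%) against 20.3%. The 4 loci had a smaller share of promoter regions, where this motif is most frequent. At promoters it was 2 of 8 (25%, 3.19 to 65.1%) against 42.7%. Away from promoters it was 1 of 33 (3.03%, 0.0767 to 15.8%) against 7.36%, so each background lay within its interval. NFAT (TGGAAA) was found at 3 summits, with 7.19% of all regions as the background. The E-box (CAGGTG) was found at 4 summits, beside a background of 8.1%. TCF (CTTTGA) was found at 2, with a background of 7.17%. The motif of GATA factors (AGATAA) was also found at 2, both at Runx1, where the background was 3.32%. STAT (TTCNNNGAA) was found at 2, both at Runx3, against 2.78% of all regions. FOX (TGTTTA), with a background of 4.57%, was found at 1 summit. So were IRF (3.26%) and CTCF (2.94%), each searched by its consensus. NF-kB and CRE motifs had 0, with an upper bound of 8.60%, beside 1.12% and 1.53% of all regions. A match is a string of letters and not a measured binding site.

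**Figure D5:**
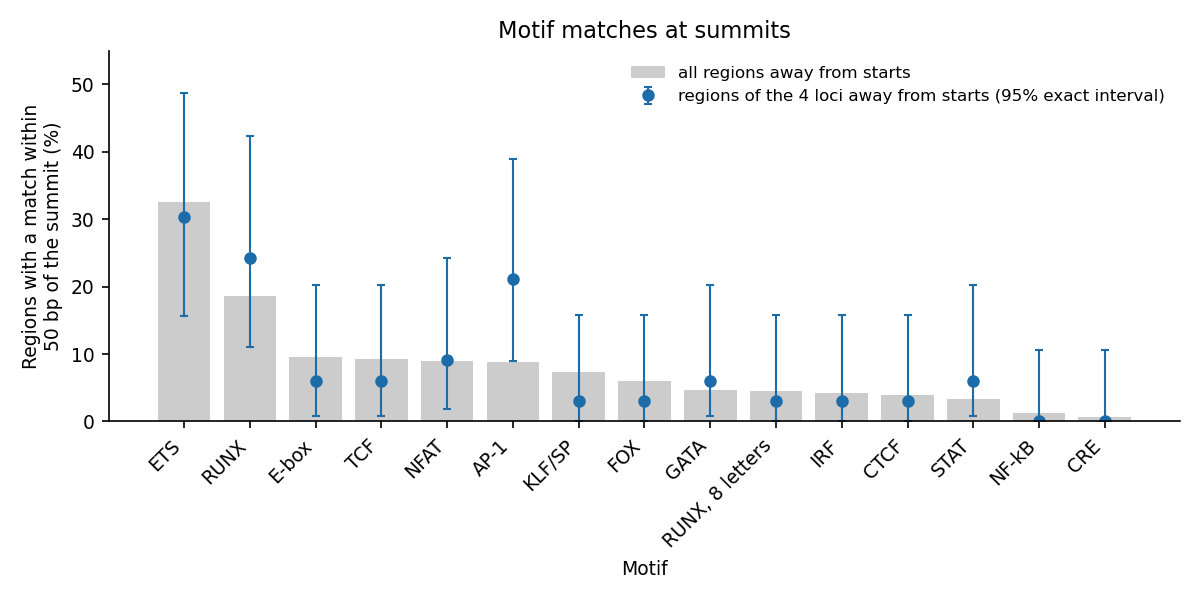
Share of regions with a match within 50 bp of the summit, away from promoters, for the 33 regions of the 4 loci (points, with 95% exact binomial intervals) and for all such regions (bars). Most points lie near the bars, and the AP-1 point is at 21.2% over a bar at 8.75%.

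Set beside 2 other families of T cell transcription factors, the RUNX loci had like shares of intronic regions and a median fold of 10.3. The 10 ETS genes had 97 regions with a median fold of 9.38, and the 5 Ikaros genes 38 with 7.93. By −log10 p the order was the reverse, with medians of 62.5 for Runx and Cbfb, 78.3 for ETS and 80 for Ikaros genes. In the upper 50% of all regions by −log10 p were 10 of 41, 42 of 97 and 17 of 38 regions. At introns the shares were 58.5% for Runx and Cbfb, 63.9% for ETS and 60.5% for Ikaros genes. The counts per gene overlapped, from 2 to 19 for Runx and Cbfb, 1 to 17 for ETS genes, led by Fli1 and Elk3, and 1 to 13 for Ikaros genes, led by Ikzf1 and Ikzf2. Per 100 kb the ETS genes ranged from 2.57 regions (Gabpa) to 12.2 (Elk3) and the Ikaros genes from 3.14 (Ikzf5) to 11.7 (Ikzf4). Runx1 with 5.76 and Runx3 with 5.35 lay inside both ranges. Cbfb with 2.79 lay below the Ikaros genes, and Runx2 with 2.36 below both families. The promoter fold of Runx3 (26.5) was above that of all 15 genes of the other families, of which Ikzf5 had the highest (19.8). A RUNX core lay within 50 bp of the summit in 16 of 97 ETS and 9 of 38 Ikaros regions. These differences were not tested, since there was 1 biological replicate.

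Genes of RUNX cofactors had accessible promoters. Of 30 cofactor names 29 were matched (Tle5 is listed as Aes), and 25 of 29 (86.2%) had a promoter region, against 49.7% of all genes. With the pseudoreplicated list it was 27 (55.3% of all genes), with a window of 500 bp 25 (48.8%), with one of 2000 bp 25 (50.9%) and with the upper 50% of regions by fold 14 (35.4%). Their median promoter fold was 14.8 (16.4 over all accessible promoters). Among the highest were Cbfa2t2 (25.8), a corepressor of the ETO family, and Suv39h1 (20.8), a histone H3 methyltransferase. Cdk6, the cell cycle kinase, had most regions with 12, then Kat6b with 7 and Hipk2 and Smurf1 with 6 each. The corepressor Tle3 had 5 regions and a promoter fold of 10.7. The 4 without a promoter region were Cbfa2t3, Tle2, Yap1 and Wwtr1, the last 2 being the Hippo pathway coactivators YAP and TAZ. Wwtr1 had no region at all. The cofactor genes were not matched with other genes for CpG ratio. Of all start clusters with a ratio over 0.4, 67.3% had a region. The cause of the difference from 49.7% was not tested.

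Genes known to be under RUNX control in T cells were accessible in part. Of 29 matched names 17 (58.6%) had a promoter region, near the 49.7% of all genes, with a median fold of 10.5 against 16.4 over all accessible promoters. With the pseudoreplicated list the count was 24, beside 55.3% of all genes. It was 15 with a window of 500 bp (48.8%) and 17 with one of 2000 bp (50.9%). In the upper 50% of regions by fold the count was 4, beside 35.4% of all genes, so the list then lay below the share of all genes. The highest were Ccr7 (15.1), a homing receptor, Bcl11b (14.6), a T cell commitment factor, and Cd3e (14.2), a chain of the T cell receptor complex. Foxp3 had 9.62, Ifng 10.3 and Zbtb7b, which encodes the CD4 lineage factor ThPOK, 11.3. Bcl11b and Ctla4 had 16 regions each and Ets1 had 15. The 12 without a promoter region in the IDR-thresholded list included Cd4, Cd8a, Tbx21, Eomes, Gzmb, Itgae, Tcf7, Il17a, Csf2, Tnfrsf18 and Myb. Of these Tcf7 had 8 regions elsewhere and Itgae, Tnfrsf18 and Myb 5 each, while Cd8a and Il17a had 0. Accessibility was measured here, and expression was not.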

How the data were processed

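ATAC-seq peak lists on mm10 were used as deposited, 1 list of each of 3 kinds standing for both technical replicates of 1 mouse. Each peak has the authors' fold enrichment (a ratio to an unnamed background), −log10 p, a whole-number score and the summit position, read from the deposited files' column order and values. The ranked list adds the authors' ranking score, a −log10 p in each of 2 sets. The sources used here do not give the aligner, peak caller, versions, filters, Tn5 shift or depth. A fold over a local background would depend on the surroundings of a peak.

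Overlapping or touching peaks of the IDR-thresholded list (58138 peaks) were merged, the peak of greatest fold gave the summit, and the greatest −log10 p was taken for the region. Genes and starts were from GENCODE M21, sequence from GRCm38.p6, whose chromosome names matched those of the list (0 peaks ran past an end). Introns and exons are those of any gene. Promoter and genome sequences are from RefSeq, and all 4 genes were matched in the promoter table, with 6 windows. Python 3.11.15, numpy 2.4.6, pandas 2.3.3 and scipy 1.17.1 were used. Merging, assignment and motif search were checked on simulated data. No p-value was computed. Intervals are 95% exact binomial (Clopper-Pearson) and cover counting error only.

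For each gene the 3 highest regions, those at starts and the outermost ones are named, and for each list the members without a promoter region, the 3 of highest promoter fold and the 3 with most regions, except that some list members are not reported here. All members and lists were chosen with earlier results of these data known. Tle3, Foxp3, Ifng and Zbtb7b, some further Runx1, Runx2 and Runx3 regions, and the spacing of paired RUNX cores were added after values or sequences had been seen. Alternatives were the peak list, fold limit, merging, assignment rule, promoter window and motif window.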

Additional observations from a re-analysis of the deposited data

How the results depend on the processing

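Of 55 recomputed values of 10 results, 36 stayed within 1.5 times the count, or within the interval of the share or median. The IDR threshold of 0.05 on the ranked list, merging within 200 bp and a limit of 50 kb changed no count by more than that. The pseudoreplicated list raised the counts to 29 at Runx1, 27 at Runx2, 21 at Runx3 and 4 at Cbfb and lowered the median fold to 7.33. With that list 24 controlled genes had a promoter region, beside 55.3% of all genes. With summits counted singly there were 37 at Runx1 and 22 at Runx2, with a median fold of 7.33. The upper 50% of regions by fold, which holds fewer regions by construction, left 3, 4, 3 and 1 regions, a median fold of 16.6, 2 accessible starts, 14 cofactor promoters and 4 promoters of controlled genes (35.4% of all genes), so that the controlled genes turned from above the share of all genes to below it. The gene body plus 5 kb alone left 4 regions at Runx3. The RUNX core share was 39.0% over whole regions (42.2% of all regions) and 2.44% for TGTGGTTT (3.08%), in both cases below the share of all regions, whereas it was above at 50 bp (19.5% and 13.7%). A share over whole regions depends on their width. Per kb the 4 loci had 1.12 cores against 0.845, with 4 cores each in the distal promoter regions of Runx1 and Runx3. Leaving out a replicate was not run, since the lists pool both. Depth is unknown, so a missing region is a region not detected.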

Other observations

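Paired RUNX cores were rare outside the Runx genes as well. Over their whole length 22 of all 29415 regions (0.0748%) held 2 cores with 2 bases between them in this orientation, and 2 of these were the distal promoter regions of Runx1 and Runx3. Of the 7 promoter windows with the pair, 4 held the run of 18 bases, those of the 3 Runx genes and of Gm16225, whose window shares sequence with that of Runx3.

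Noncoding genes lay at several of the regions. The Runx1 regions at −38256 and −41398 bp, with folds of 10.1 and 8.30, have their summits inside the noncoding gene Gm49723, and each holds a RUNX core near its summit. In Runx2, the summit at 101224 bp, with a fold of 6.67, is inside the antisense RNA Runx2os2.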
